A study of Mus musculus with 11 samples.

Results

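The brains of mouse embryos that lacked p53 and were labelled affected were compared with the brains of unaffected p53-null embryos of the same age, over the genes of chromosomes 1 to 19. The comparison used 8 of the 11 libraries of the series: 4 affected females and 4 control males, each library from 1 embryo, taken from the sample titles. Of 27179 counted genes, 23975 lie on these autosomes, and 13491 of those were expressed highly enough to be tested, out of 14542 tested genes in all.

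By the labels, all embryos were C57BL/6 at embryonic day 9.5 and carried Bim+/-. This means 1 mutant copy of Bcl2l11, the gene for the pro-apoptotic protein Bim. Affected females and control males were both p53-/- Bim+/-. The 3 control females were p53+/+ Bim+/-; they entered the fit for the estimate of spread, and their levels are given for reference. What was wrong with the affected females is not stated in the labels. There were no unaffected p53-null females or affected males, so being affected and being female cannot be told apart in this comparison. The tissue was brain cut just behind the otic vesicle, the primordium of the inner ear, and its polyadenylated RNA was sequenced.

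At this age the neural plate has just rolled up and fused into a tube in the head, a process that depends on the actin cytoskeleton, planar cell polarity and the overlying surface ectoderm. The wall of the tube is made of dividing progenitors, and the first neurons are being born through a cascade of basic helix-loop-helix (bHLH) transcription factors held in check by Notch signalling. p53 is a transcription factor that arrests or kills damaged cells, and its loss is known to cause failure of cranial neural tube closure in a share of mouse embryos, mainly in females.

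The 8 libraries held 9188848 to 11218682 counts. Levels are CPM, counts per 1000000 of a library's TMM-adjusted total, always in the order of replicates 1 to 4 (1 to 3 for control females), and log2 fold changes are affected females minus control males, given as the value ± its standard error (SE); adjusted p comes from the quasi-likelihood test of edgeR, adjusted by Benjamini-Hochberg over 14542 genes. A gene is said to have risen or fallen where this adjusted p was under 0.05. The labels could be checked on the whole-gene counts only in part. Trp53 lay between 107 and 139 CPM in affected females and between 112 and 132 CPM in control males, so its counts did not show the deletion. Ccng1, a direct p53 target, lay at 21.8 to 24.5 CPM in affected females and 27.5 to 33.5 CPM in control males, against 74.7 to 93.8 CPM in the p53+/+ control females. Bcl2l11 lay at 38.2 to 47.3 CPM in affected females and 36 to 47.7 CPM in control males, but at 71 to 82.1 CPM in control females. The shared label Bim+/- was thus not met by an equal level in all groups. Xist (1440 to 2170 against 8.72 to 13.2 CPM) and the Y-linked genes separated the sexes in every library. In the control females Xist was higher than in the affected females, at 4390 to 5960 CPM. The tissue label was met by Sox2, a neural progenitor factor, at 149 to 162 CPM in affected females and 133 to 169 CPM in control males, and by Otx2, a forebrain and midbrain factor, at 124 to 138 and 118 to 141 CPM. Egr2, which marks part of the hindbrain, was also detected, at 6.88 to 10.9 and 2.38 to 6.61 CPM.

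Of the 13491 autosomal genes, 2649 (19.6%) changed, 1186 upward (8.79%) and 1463 downward (10.8%). Most changes were small: 59 genes rose and 216 fell by at least 2-fold, and the median log2 fold change over all autosomal genes tested was -0.02. The ranges of the 2 groups did not overlap for 1259 genes that were higher and 1303 that were lower in affected females. The number of calls depended on single embryos. Leaving out affected female 3 gave 278 calls and leaving out affected female 4 gave 994. For control males 1, 2 and 3 in turn the numbers were 537, 968 and 1283, and for control male 4 it was 4716. In all 8 fits 267 genes were called, 107 upward and 160 downward. The same dependence is given below for the counts in gene lists; for most counts of 3 or fewer genes, the full fit alone is given. The first principal component of the autosomal genes, taken over all 11 libraries, held 49.1% of the variance. It placed the affected females at -22.4, -27.5, -35.7 and -29.5 and the control males at 19.4, 35.8, 6.7 and -14.4. The control females were at 9, 27.7 and 30.8. Control male 4 was therefore the control nearest to the affected females, and affected female 3 was the farthest from the controls.

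**Figure D1:**
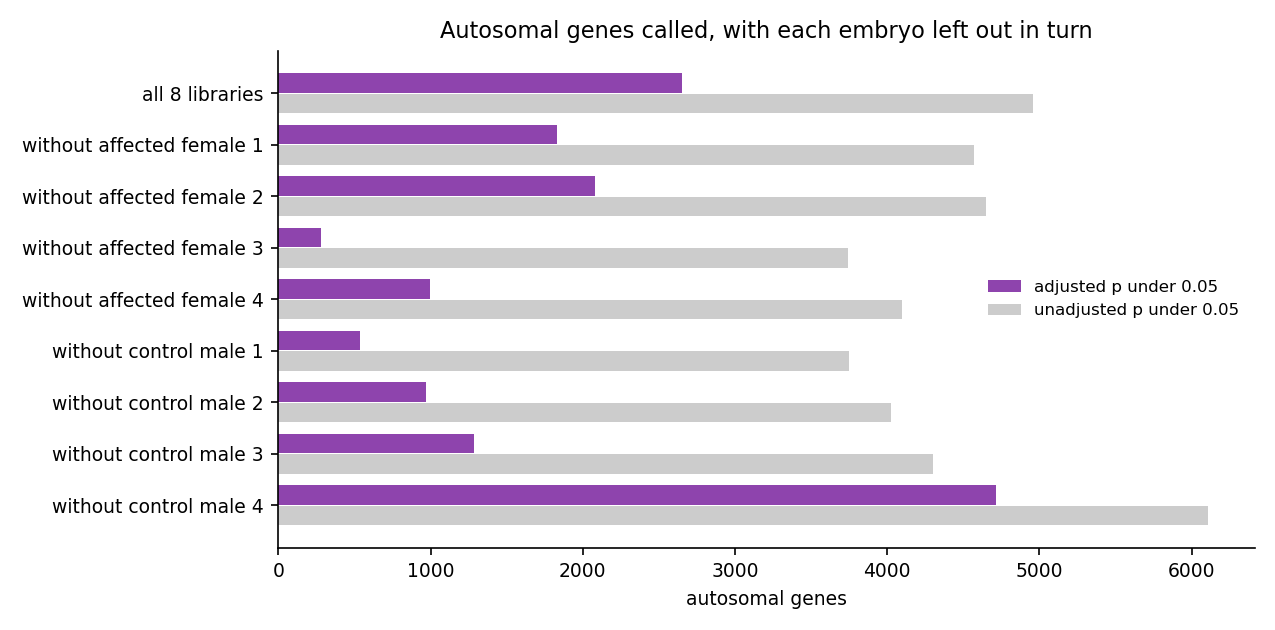
Number of autosomal genes (horizontal axis) with an adjusted p under 0.05 (purple) and an unadjusted p under 0.05 (grey), in the fit with all 8 compared libraries and with each embryo left out in turn. The adjusted count runs from 278 with affected female 3 omitted to 4716 with control male 4 omitted, and the unadjusted count from 3743 to 6109.

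Many genes of neurogenesis were among those that fell. Of 12 tested members of a list of proneural bHLH genes and their close partners, 10 fell and none rose, with a median of -1.07 against -0.02 for all autosomal genes; 8.79% of all autosomal genes rose and 10.8% fell. Of 26 genes of early neurons, 12 fell and none rose, with a median of -0.58. At an unadjusted p under 0.05 (edgeR), 11 and 15 of the 2 lists were lower and still none was higher, and DESeq2 called 9 and 13 lower and none higher. Proneural factors are transcription factors that commit a progenitor to the neuronal fate, and the genes of the second list are turned on in the neurons that result. The upstream sequences of the pair of genes with the largest falls in the first list, Nhlh1 and Nhlh2, are shown here because these factors belong to a cascade in which bHLH proteins bind E-box motifs. The 250 bases before the RefSeq transcript start (GRCm38.p6) are printed 5′ to 3′ on the gene's strand, with matches to the E-box CAGNTG, searched on both strands (CAGNTG or CANCTG), in capitals. Nhlh1 (chr1:172057597-172057846, minus strand) holds 1 match and Nhlh2 (chr3:102009895-102010144, plus strand) holds 2.
Nhlh1: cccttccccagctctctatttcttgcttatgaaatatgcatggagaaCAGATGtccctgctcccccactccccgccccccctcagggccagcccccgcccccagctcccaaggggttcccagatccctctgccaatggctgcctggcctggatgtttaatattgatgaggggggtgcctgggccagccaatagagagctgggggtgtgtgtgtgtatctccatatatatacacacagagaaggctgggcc
Nhlh2: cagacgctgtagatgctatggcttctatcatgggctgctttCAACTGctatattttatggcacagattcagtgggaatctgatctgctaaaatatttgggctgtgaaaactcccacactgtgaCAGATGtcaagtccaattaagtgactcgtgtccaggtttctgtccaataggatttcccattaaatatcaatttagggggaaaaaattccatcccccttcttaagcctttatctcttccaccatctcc
Such a match is common and is no evidence of binding: 37.3% of 10435 upstream windows of tested autosomal genes held at least 1, against 3 of 9 windows of the proneural list and 6 of 16 of the early neuron list. The window of Neurod1 held none.

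Nhlh1 and Nhlh2 encode bHLH factors that are switched on transiently as a cell leaves the cycle and becomes a neuron. Nhlh1 (chromosome 1, 172052292 to 172057596) was at 2.69, 2.47, 1.68 and 3.2 CPM in affected females and at 10.7, 16, 8.88 and 8.27 CPM in control males, a difference of -2.12 on the log2 scale (± 0.33 SE, edgeR adjusted p = 0.00475). Every affected female was below every control male by a wide gap, and the other control females were both at 14.2 CPM. Nhlh2 was at 1.89, 1.75, 1.12 and 2.13 CPM against 6.02, 14.8, 5.72 and 6.27 CPM (log2 fold change -2.24 ± 0.45 SE, edgeR adjusted p = 0.0102). Neurod1, a differentiation factor that acts downstream of the neurogenins, was at 7.08, 1.85, 2.89 and 6.88 CPM against 21.3, 26.2, 16.5 and 14.7 CPM (log2 fold change -2.07 ± 0.43 SE, edgeR adjusted p = 0.0107). Affected females 2 and 3 had the least Neurod1, and again the ranges did not meet. Control female 1, which was p53+/+, was below every control male for these genes; its Neurod1 level (3.36 CPM) lay within the range of the affected females, and its Nhlh1 (4.86 CPM) and Nhlh2 (2.74 CPM) levels lay above it. Without affected female 3 the call for Neurod1 was lost (edgeR adjusted p = 0.0501); those for Nhlh1 and Nhlh2 held in all 8 leave-one-out fits.

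The factors that start the cascade moved less. Neurog1 fell by 0.85 (± 0.28 SE) and Neurog2 by 0.75 (± 0.23 SE) on the log2 scale, with adjusted p of 0.0448 and 0.0368 (edgeR), and the calls were lost in 7 and 6 of the 8 leave-one-out fits, with adjusted p of up to 0.136 and 0.113. Atoh1, which specifies dorsal hindbrain neurons, fell by 1.71 on the log2 scale; the values for Neurod4, Insm1, Bhlhe22 and Olig2, which also fell, were -1.10, -1.04, -1.24 and -0.78. The number of proneural genes that fell was 2 with affected female 3 omitted, 3 with control male 1 omitted, 4 with control male 2 omitted and 6 with affected female 1 or 2 omitted. In control female 1 the median of the list, relative to the mean of 11 libraries, was -0.75, within the affected females' -0.43, -0.82, -0.97 and -0.13; the control males were at 0.42, 0.82, 0.26 and 0.33 and the other control females at 0.61 and 0.80.

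Among the early neuron genes, Myt1, a zinc finger factor that promotes neuronal differentiation, was at 2.49, 1.64, 1.3 and 4.07 CPM in affected females and 8.09, 17.3, 5.92 and 7.45 CPM in control males (log2 fold change -2.01 ± 0.42 SE, edgeR adjusted p = 0.0106). Its paralogue St18 stood at -2.0 (± 0.41 SE, edgeR adjusted p = 0.0104). Isl1, a LIM homeodomain factor of motor and sensory neurons, was at 9.27, 7.29, 5.69 and 8.14 CPM against 21.2, 25.3, 15.1 and 12.9 CPM (log2 fold change -1.29 ± 0.23 SE, edgeR adjusted p = 0.00755). The calls of these 3 genes held in all 8 leave-one-out fits. Elavl4, an RNA-binding protein of new neurons, was at 17.4, 16.7, 15.7 and 25.1 CPM against 35.7, 53.7, 30.7 and 32.5 CPM (log2 fold change -1.02 ± 0.22 SE, edgeR adjusted p = 0.0115), and Pou4f1, a sensory neuron factor, fell by 1.11; both calls were lost without affected female 3 (adjusted p = 0.0521 and 0.0534, edgeR). General cytoskeletal markers of neurons differed less. Tubb3 was at 27.7, 23.6, 24.2 and 29.4 CPM against 33, 46, 33.9 and 38.1 CPM (edgeR adjusted p = 0.0507), and Stmn2 at -0.55 (± 0.23 SE) missed the threshold with an adjusted p of 0.0987 (edgeR). The number of early neuron genes that fell was 3 with affected female 3 omitted and 7 with control male 2 omitted. In bulk tissue, fewer neurons and less RNA of these genes per neuron cannot be told apart.

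**Figure D2:**
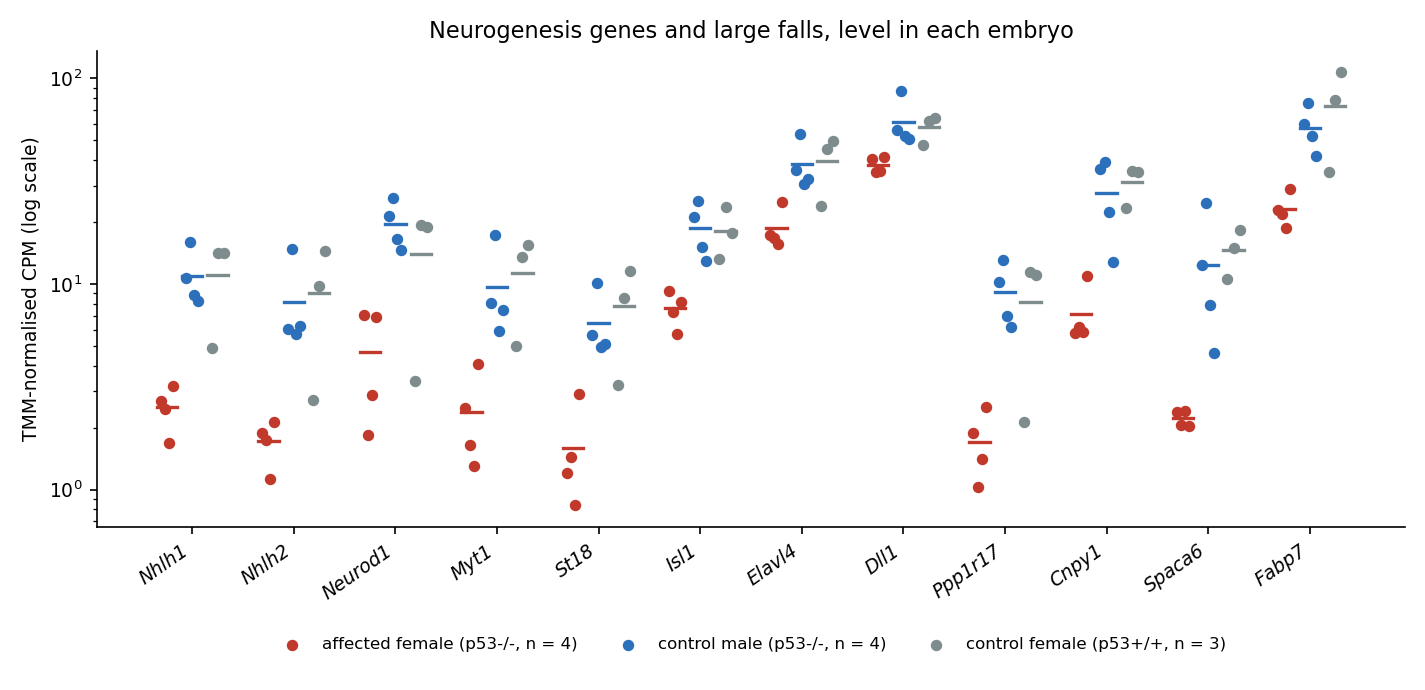
Level of 12 genes in each embryo, as TMM-normalised CPM on a log axis; points are embryos and bars are group means (red, affected females; blue, control males; grey, control females). The 4 affected females lie below the 4 control males for each of the 12 genes, and control female 1 lies near the affected females for several of them.

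Other large falls were in genes that are themselves linked to the early brain. Ppp1r17, which encodes a small inhibitor of protein phosphatases, was at 1.89, 1.03, 1.4 and 2.52 CPM against 10.2, 13.1, 7 and 6.18 CPM (log2 fold change -2.40 ± 0.43 SE, edgeR adjusted p = 0.00825). Cnpy1, a regulator of FGF signalling at the midbrain-hindbrain boundary, was at 5.78, 6.16, 5.87 and 10.9 CPM against 36.2, 39.1, 22.3 and 12.8 CPM (log2 fold change -1.93 ± 0.31 SE, edgeR adjusted p = 0.00517). Affected female 4 and control male 4 came close to each other for Cnpy1, without overlap. Fabp7, a fatty acid binding protein of radial glial progenitors, fell by 1.32 (± 0.26 SE, edgeR adjusted p = 0.00999), from 42 to 76.2 CPM in control males to 18.7 to 28.9 CPM. All 3 calls held in each leave-one-out fit. Shisa3, an inhibitor of Wnt and FGF receptor maturation, fell by 2.08 on the log2 scale, and its call was lost without affected female 3 (edgeR adjusted p = 0.059).

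Several of the largest falls were in long non-coding RNAs and transcripts that carry microRNAs. A microRNA is cut out of a longer host transcript, and its seed, bases 2 to 8, pairs with target messages. Gm16551, an uncharacterised transcript, was at 1.69, 0.822, 0.559 and 1.26 CPM against 9.22, 21.8, 6.31 and 5.36 CPM (log2 fold change -3.28 ± 0.64 SE, edgeR adjusted p = 0.00956). Mir124a-1hg, the host of the neuronal microRNA miR-124, was at 1.5, 0.719, 0.839 and 1.36 CPM against 10.2, 16.9, 5.92 and 3.27 CPM (log2 fold change -3.01 ± 0.65 SE, edgeR adjusted p = 0.011; 0.0501 with affected female 3 omitted). Both transcripts were about as low in control female 1, at 2.12 and 1.74 CPM. Spaca6 (chromosome 17, 17826085 to 17843010), whose span holds the cluster of let-7e and miR-125a, was at 2.39, 2.05, 2.42 and 2.03 CPM against 12.4, 24.7, 7.89 and 4.63 CPM (log2 fold change -2.46 ± 0.42 SE, edgeR adjusted p = 0.0066). Its levels were nearly equal in the 4 affected females and ranged widely in the control males, with the lowest in control male 4. Dnm3os, which carries miR-199a and miR-214 and lies antisense to Dnm3, was at 9.37, 4.73, 2.52 and 6.68 CPM against 28.2, 41.4, 20.1 and 12.7 CPM (log2 fold change -2.13 ± 0.54 SE, edgeR adjusted p = 0.0181), and 4.61 CPM in control female 1. No source used here says whether counting respected strand, so Dnm3os and Dnm3 reads cannot be told apart with certainty. The call for Dnm3os was lost without affected female 3, control male 1 or control male 2 (adjusted p of up to 0.0697, edgeR).

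The mature microRNAs encoded in these hosts are printed 5′ to 3′ from RefSeq (GRCm38.p6), with the seed in capitals, because these hosts fell (Spaca6 and Dnm3os are among the largest falls, and Gm3764 was chosen after its values were seen); the 5 seeds differ from each other.
let-7e-5p (Spaca6): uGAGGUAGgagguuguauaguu
miR-125a-5p (Spaca6): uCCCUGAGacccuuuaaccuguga
miR-9-5p (Gm3764): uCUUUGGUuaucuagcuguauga
miR-214-3p (Dnm3os): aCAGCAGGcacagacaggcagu
miR-199a-5p (Dnm3os): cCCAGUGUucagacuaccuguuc
Counts of a host transcript are not levels of the mature microRNA, which the libraries did not measure. Gm3764, a host of miR-9, fell by 1.46 (± 0.43 SE, edgeR adjusted p = 0.0305) and Mir9-3hg, another host of miR-9, by 2.05 (± 0.62 SE, edgeR adjusted p = 0.0334); both calls were lost in 6 of the 8 leave-one-out fits, with adjusted p of up to 0.109 and 0.135. Dleu2, the host of miR-16-1, fell by 1.17 on the log2 scale. Of 17 long non-coding RNAs whose span holds a microRNA on the same strand, 10 fell, none rose and all 17 had a negative log2 fold change, with a median of -0.82. The calls of 2 of these hosts, Rian and Mirg, were also lost in 6 of the 8 leave-one-out fits. Among 397 protein-coding hosts, 58 rose and 41 fell, with a median of 0.03. For reference, 8.79% of all autosomal genes rose and 10.8% fell. The grouping by host was made after values of these genes had been seen. Long non-coding RNAs as a class had a median log2 fold change of -0.46: 101 of 456 fell (22.1%) and 7 rose (1.54%). With each library's trend with gene length removed, 88 fell and 6 rose. Without affected female 3 the numbers were 12 and 1, and without control male 4 they were 181 and 9.

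Notch signalling keeps neighbouring progenitors from differentiating together. Of 26 tested members of the pathway, 6 fell and 4 rose (Maml1, Maml2, Maml3 and Rbpj), and the median was -0.35. The shares were 23.1% and 15.4%, where 10.8% of all autosomal genes fell and 8.79% rose. Dll1, the ligand made by cells that are becoming neurons, was at 40.4, 34.9, 35.5 and 41.7 CPM against 56.1, 86.8, 52.4 and 50.5 CPM (log2 fold change -0.69 ± 0.15 SE, edgeR adjusted p = 0.0123). Dll3, a related ligand that acts within the cell, fell by 1.25 and Hes6, which opposes Hes1, by 0.76 on the log2 scale. The nuclear co-activator Maml3 was at 41.9, 35.2, 39.2 and 44.4 CPM against 22.5, 22.5, 26.9 and 30.3 CPM (log2 fold change 0.65 ± 0.13 SE, edgeR adjusted p = 0.0102), with no overlap. Rbpj, the DNA-binding partner of the cleaved receptor, stood at 0.29 (edgeR adjusted p = 0.0372); with each library's trend with gene length removed, Rbpj and Maml2 were not called (adjusted p = 0.0728 and 0.0813, edgeR). The classical effectors were not detectably different: Hes1 was at -0.04 (± 0.09 SE, edgeR adjusted p = 0.744) and Hes5 at -0.64 (± 0.31 SE, edgeR adjusted p = 0.147). Among these, only the call of Maml3 held in all 8 leave-one-out fits; the number that fell was 0 with affected female 3 omitted, 2 with control male 2 omitted, 3 with affected female 4 or control male 1 omitted, and 10 with control male 4 omitted. The number that rose was 2 with affected female 2 omitted and 1 with affected female 3 or 4 or control male 1, 2 or 3 omitted.

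Most progenitor genes were not called. Of 24 tested, 6 rose and 3 fell (Fabp7, Slc1a3 and Prom1), and the median was 0.21. The shares were 25% and 12.5%, against 8.79% and 10.8% of all autosomal genes. Lin28a, which blocks the maturation of let-7 in immature cells, was at 934, 1010, 1130 and 996 CPM against 571, 372, 662 and 810 CPM (log2 fold change 0.75 ± 0.21 SE, edgeR adjusted p = 0.0247). Nr6a1, a nuclear receptor that marks early neuroepithelium, was at 427, 462, 506 and 432 CPM against 212, 167, 265 and 331 CPM (log2 fold change 0.91 ± 0.21 SE, edgeR adjusted p = 0.0139). Dnmt3b, a DNA methyltransferase of early embryos, rose by 0.65 (± 0.15 SE, edgeR adjusted p = 0.0133). For all 3 genes the ranges did not overlap, and control male 4 was the highest control male. Pan-neural Sox2 and Nes differed by 0.04 (± 0.10 SE) and -0.06 (± 0.15 SE) on the log2 scale, with adjusted p of 0.795 and 0.785 (edgeR). No progenitor gene rose without affected female 3 or without control male 1, 2 rose without affected female 4 or control male 2, 3 with control male 3 omitted, and 11 with control male 4 omitted.

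Of 22 tested genes of hedgehog signalling and the ventral neural tube, 3 rose and 4 fell (13.6% and 18.2%, median -0.13). Of 41 genes of the dorsal tube, BMP and Wnt, 2 rose and 6 fell (4.88% and 14.6%, median -0.05). Over all autosomal genes 8.79% rose and 10.8% fell. Along the dorsoventral axis, ventral identity depends on Sonic hedgehog and dorsal identity on BMP and Wnt signals. Gli1, a transcriptional target and effector of hedgehog signalling, was at 29, 28.8, 23.1 and 26.1 CPM against 49.7, 56.8, 53.6 and 34.3 CPM (log2 fold change -0.86 ± 0.13 SE, edgeR adjusted p = 0.005). Gli3, which mostly acts as its repressor, was at 289, 289, 350 and 356 CPM against 175, 204, 211 and 263 CPM (log2 fold change 0.59 ± 0.11 SE, edgeR adjusted p = 0.00956). Both calls held in all 8 leave-one-out fits. The ligand Shh (-0.18 ± 0.14 SE, edgeR adjusted p = 0.381) and the receptor and target gene Ptch1 (0.04 ± 0.07 SE, edgeR adjusted p = 0.695) did not differ detectably. Nkx2-1, which marks the ventral forebrain, fell by 1.11 (± 0.27 SE, edgeR adjusted p = 0.0158). In the list of the dorsal tube, BMP and Wnt, the Wnt ligand Wnt7a was at 1.5, 1.23, 0.839 and 2.32 CPM against 5.45, 6.2, 5.13 and 5.09 CPM (log2 fold change -1.88 ± 0.37 SE, edgeR adjusted p = 0.00956). The zinc finger factor Zic4 (-1.40), the ligand Bmp6 (-1.11) and the Wnt co-activator Rspo3 (-0.88) fell, whereas the ligand Bmp2 rose from 3 to 5.13 CPM in control males to 8.52 to 10.9 CPM (log2 fold change 1.25 ± 0.29 SE, edgeR adjusted p = 0.0139). The last 4 calls and that of Nkx2-1 were lost without affected female 3 (adjusted p of 0.0501 to 0.0598, edgeR), and those of Bmp2 and Nkx2-1 also without control male 1. The number of hedgehog and ventral genes that fell was 1 with affected female 3 or control male 1 omitted, 2 with control male 2 omitted and 7 with control male 4 omitted. In the dorsal, BMP and Wnt list 1 gene fell with affected female 3 omitted. Without control male 2 the ventral median was -0.04, and without affected female 1 the dorsal one was 0.01.

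Along the anteroposterior axis, 8 of 33 genes of forebrain, eye and midbrain rose and 6 fell, with a median of -0.02. These were 24.2% and 18.2%, against 8.79% and 10.8% of all autosomal genes. Hesx1, which is required for the anterior forebrain and the pituitary, was at 5.38, 5.03, 6.06 and 3.39 CPM against 1.97, 0.93, 1.28 and 2.09 CPM (log2 fold change 1.64 ± 0.28 SE, edgeR adjusted p = 0.0066). Sp8, a zinc finger factor of the forebrain and the boundary regions, rose by 0.49 (± 0.10 SE), while Nr2f1, a nuclear receptor of the forebrain, fell by 0.49 (± 0.09 SE). These 3 calls held in all 8 leave-one-out fits. Otx1 fell by 0.39, and Pax2, a factor of the optic stalk and the midbrain-hindbrain boundary, rose by 0.72 on the log2 scale; their calls were lost without affected female 3, that of Pax2 also without affected female 4. Fgf8, the signal of that boundary, was not detectably different at -0.45 (± 0.21 SE, edgeR adjusted p = 0.131). Of 32 hindbrain, Hox and retinoic acid genes, 7 rose and 1 fell (21.9% and 3.12%), with a median of 0.17. Aldh1a2, the enzyme that makes retinoic acid in the early embryo, was at 3.59, 5.44, 6.34 and 2.71 CPM against 1.13, 1.86, 0.69 and 1.54 CPM (log2 fold change 1.79 ± 0.34 SE, edgeR adjusted p = 0.00954), and the retinoic acid receptor Rarb rose by 0.52. The call of Aldh1a2 held in each leave-one-out fit. The number of these hindbrain genes that rose was 2 with affected female 3 omitted, 3 with control male 1 omitted and 12 with control male 4 omitted. Without control male 2 the medians of the hindbrain and the forebrain, eye and midbrain lists were 0.11 and 0.09. Of the forebrain, eye and midbrain genes, 2 rose and 2 fell without affected female 3, 3 and 3 with control male 1 omitted, and the number that rose was 3 with affected female 4 omitted, 4 with control male 2 omitted and 5 with control male 3 omitted.

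Surface ectoderm is the epithelial sheet that covers the neural tube and fuses over it. Of 28 tested genes of surface ectoderm and placodes, 13 rose and 1 fell (46.4% and 3.57%), with a median of 0.38. Over all autosomal genes 8.79% rose and 10.8% fell. Esrp1, a splicing factor specific to epithelia, was at 40, 32.1, 40.9 and 40.3 CPM against 21.2, 19.4, 20.5 and 27.7 CPM (log2 fold change 0.78 ± 0.16 SE, edgeR adjusted p = 0.0102). Grhl2, a grainyhead factor required in the surface ectoderm for closure, was at 32.6, 26.2, 33.4 and 23.1 CPM against 17.4, 16.6, 18.2 and 21.8 CPM (log2 fold change 0.64 ± 0.14 SE, edgeR adjusted p = 0.011). Cdh1, which encodes E-cadherin, was at 64.1, 63.2, 73.1 and 69.7 CPM against 35.3, 32.2, 37.8 and 47.1 CPM (log2 fold change 0.83 ± 0.19 SE, edgeR adjusted p = 0.0135). In none of the 3 did the groups overlap, but control female 1 was at 31.9 CPM for Esrp1 and 62.3 CPM for Cdh1, above the other control females. The desmosomal protein gene Dsp rose by 0.97, the keratin gene Krt8 by 0.94, Grhl3 by 0.94 and the tight junction gene Cldn4 by 0.60 on the log2 scale. The member that fell was Oc90, an otic vesicle gene (log2 fold change -1.62 ± 0.54 SE, edgeR adjusted p = 0.0466). Summed over the 28 tested genes, this list was at 676, 593, 662 and 627 CPM in affected females, 453, 388, 454 and 524 CPM in control males and 543, 410 and 373 CPM in control females. None of its 30 autosomal members was at 0 in all 8 libraries. The number that rose was 1 with affected female 3 omitted, 4 with control male 1 omitted, 6 with control male 2 omitted and 8 with affected female 1 or 4 omitted; Esrp1 was called in each fit, and Grhl2 was not without affected female 3 (edgeR adjusted p = 0.0526). How much surface ectoderm was dissected with each brain was not tested.

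Neural crest, the migratory cells that leave the dorsal tube, had 3 of 19 genes that rose (Ets1, Sox10 and Dlx5) and 1 that fell (Nr2f1), with a median of 0.19. These were 15.8% and 5.26% of the list, against 8.79% and 10.8% of all autosomal genes. Ets1, a transcription factor of cranial crest and of endothelium, was at 163, 133, 157 and 156 CPM against 85.1, 79.5, 100 and 107 CPM (log2 fold change 0.71 ± 0.10 SE, edgeR adjusted p = 0.00425), and its call held in all 8 leave-one-out fits. Sox10, which marks migrating crest, was at 33.5, 24.5, 24.6 and 23 CPM against 18.2, 12.2, 17.4 and 18.8 CPM (log2 fold change 0.66 ± 0.17 SE, edgeR adjusted p = 0.018), and was not called without affected female 3 or control male 2. The summed level of the 19 genes overlapped between the groups, at 784 to 928 and 793 to 840 CPM. The number of crest genes that rose was 1 with affected female 3 omitted and 7 with control male 4 omitted, and the median was 0.02 with affected female 1 omitted.

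Of 61 tested genes whose loss in mice disturbs neural tube closure, 18 rose and 2 fell (Dvl1 and Celsr2), with a median of 0.16. These were 29.5% and 3.28%, against 8.79% and 10.8% of all autosomal genes. Cobl, an actin nucleator that acts with planar polarity genes in cranial closure, was at 14.7, 13.4, 12.4 and 12.3 CPM against 4.51, 5.58, 6.02 and 7.45 CPM (log2 fold change 1.16 ± 0.20 SE, edgeR adjusted p = 0.00711). Palld, an actin-bundling protein needed for cranial closure, was at 37.9, 37.4, 46 and 52.7 CPM against 21.1, 21.6, 24.7 and 32.3 CPM (log2 fold change 0.80 ± 0.18 SE, edgeR adjusted p = 0.0118). Control female 1, at 39 CPM, lay within the range of the affected females for Palld, and the other control females were at 22.6 and 23.1 CPM. Dvl1, a signal transducer of Wnt and planar cell polarity, went down, from 40.2, 44.1, 38.6 and 28.4 CPM in control males to 24.3, 25.5, 24 and 24.1 CPM (log2 fold change -0.63 ± 0.12 SE, edgeR adjusted p = 0.00839). The 4 affected females were nearly equal for Dvl1. The calls of Cobl and Dvl1 held in all 8 leave-one-out fits, and that of Palld was lost without affected female 3 (edgeR adjusted p = 0.0512). Vcl, which links adhesion sites to actin, rose by 0.44. In folate and one-carbon metabolism, which supplies nucleotides and methyl groups and is tied to closure, 6 of 28 genes rose and none fell (8 and 1 at an unadjusted p under 0.05 by edgeR, 6 and 0 by DESeq2). The largest of those named was Mthfd1l, the mitochondrial formate-producing enzyme, at 114, 88.9, 109 and 120 CPM against 53.3, 50.3, 67.7 and 95.4 CPM (log2 fold change 0.69 ± 0.17 SE, edgeR adjusted p = 0.0163), where control male 4 overlapped the affected females. Its neighbours in the pathway Mthfd1 (0.43), Gldc (0.39) and Shmt2 (0.35) also rose. Single libraries set these counts: 1 closure gene rose without affected female 3, 2 with control male 1 omitted, 4 with affected female 4 or control male 3 omitted, 6 with control male 2 omitted and 11 with affected female 1 omitted, and the number of folate genes that rose was 0 with affected female 3, control male 1 or control male 2 omitted, 1 with affected female 4 omitted and 3 with affected female 1 or control male 3 omitted. With the length trend removed, 13 closure genes rose and 6 fell.

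**Figure D3:**
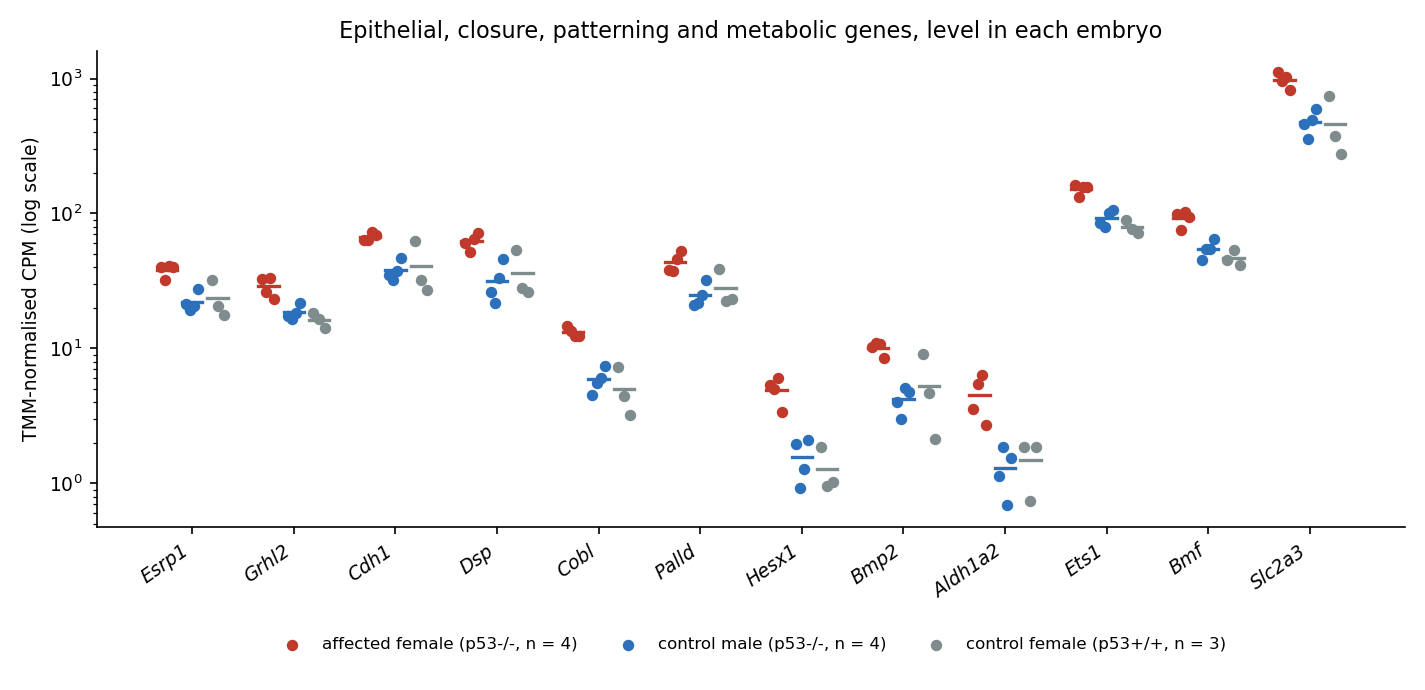
Level of 12 genes in each embryo, as TMM-normalised CPM on a log axis; points are embryos and bars are group means (red, affected females; blue, control males; grey, control females). For each gene the 4 affected females lie above the 4 control males. Control female 1 lies above the other control females for each gene except Bmf, and within the range of the affected females for Dsp, Palld and Bmp2.

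In the cell cycle and repair lists a minority of genes passed the test, mostly upward and by small amounts. Over all autosomal genes 8.79% rose and 10.8% fell. Of 41 genes of DNA replication and its onset 10 rose and 2 fell (Ccne2 and E2f2; median 0.16), of 35 mitotic genes 9 rose and 1 fell (Cks2; median 0.19), and of 31 genes of DNA damage repair 12 rose and none fell (median 0.20, 14 and 0 at an unadjusted p under 0.05 by edgeR, 12 and 0 by DESeq2). Plk1, a mitotic kinase, was at 117, 123, 149 and 129 CPM against 75.5, 73.4, 92.7 and 112 CPM (log2 fold change 0.55 ± 0.12 SE, edgeR adjusted p = 0.0118). Mcm3, a subunit of the replicative helicase, rose by 0.54, the topoisomerase Top2a by 0.47 and the damage kinase Atm by 0.37 on the log2 scale. Ccne2, a cyclin that drives entry into DNA replication, fell, from 133, 135, 139 and 114 CPM in control males to 85.7, 106, 89.9 and 78.8 CPM (log2 fold change -0.53 ± 0.10 SE, edgeR adjusted p = 0.00825), and was called in all 8 leave-one-out fits. Without affected female 3 no gene of the 3 lists rose. Without control male 1 the numbers that rose were 0, 1 and 1, without control male 2 they were 1, 3 and 5, without control male 3 they were 2, 3 and 4, and without affected female 4 they were 1, 2 and 5. Without control male 4 they were 19, 20 and 12, and without affected female 1 the repair list had 7. The repair median was 0.13 without affected female 3, and with the length trend removed it was also 0.13, with 8 rises.

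Both groups lack p53. Of 35 tested p53 targets, 2 rose (Zfp365 and Apaf1) and 5 fell, with a median of -0.02, the same as that of all autosomal genes. The shares were 5.71% and 14.3%, against 8.79% and 10.8% of all autosomal genes. Ccng1 was lower in affected females than in control males (log2 fold change -0.39 ± 0.10 SE, edgeR adjusted p = 0.0203), without overlap. Cdkn1a, the cell cycle inhibitor p21, was at 2.49, 1.64, 2.24 and 2.52 CPM against 2.63, 3.41, 2.66 and 3.64 CPM (edgeR adjusted p = 0.363), and Mdm2, which degrades p53, stood at -0.24 (± 0.09 SE, edgeR adjusted p = 0.071). Plk3, a stress-responsive kinase, was at 3.59, 3.18, 3.73 and 3.39 CPM against 6.39, 11.7, 7.99 and 5.45 CPM (log2 fold change -1.17 ± 0.24 SE, edgeR adjusted p = 0.0102). Zfp365, a gene of genome stability, was at 9.57, 11.2, 13.2 and 11.8 CPM against 6.58, 7.03, 6.61 and 7.09 CPM (log2 fold change 0.75 ± 0.15 SE, edgeR adjusted p = 0.0106); the p53+/+ control females were at 16.9, 11 and 12.4 CPM. The call of Plk3 held in all 8 leave-one-out fits, that of Zfp365 was lost without affected female 3 (edgeR adjusted p = 0.0501), and that of Ccng1 without affected female 3, control male 2 or control male 3. The number of targets that fell was 1 with affected female 3 or control male 2 omitted, 2 with control male 1 omitted, 3 with affected female 4 or control male 3 omitted, and 9 with control male 4 omitted; the number that rose was 0 with affected female 3 omitted, 1 with affected female 4 or control males 1, 2 or 3 omitted, and 4 with control male 4 omitted. The median was -0.08 with affected female 2 omitted and -0.09 with control male 2 omitted.

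The list of cell death genes held the BCL-2 family, inhibitors of apoptosis, caspases and other genes of cell death. Of its 31 tested members, 5 rose (Bmf, Ripk3, Birc6, Casp9 and Apaf1) and 2 fell (Birc2 and Htra2). These were 16.1% and 6.45%, against 8.79% and 10.8% of all autosomal genes. Bmf, a pro-apoptotic BH3-only protein related to Bim, was at 99, 75, 103 and 93.6 CPM against 45.3, 54.1, 54.6 and 64.6 CPM (log2 fold change 0.76 ± 0.12 SE, edgeR adjusted p = 0.00517). Ripk3, the kinase of necroptosis, was at 8.77, 8.42, 8.48 and 8.04 CPM against 5.74, 4.24, 4.44 and 5 CPM (log2 fold change 0.79 ± 0.15 SE, edgeR adjusted p = 0.00864). The inhibitor of apoptosis Birc6 rose by 0.53 (± 0.10 SE) while Birc2 fell by 0.59 (± 0.12 SE), both with an adjusted p of 0.00956 (edgeR). All 4 calls held in each leave-one-out fit, and no group overlapped. Bcl2l11 itself was at 38.2 to 47.3 CPM in affected females, 36 to 47.7 CPM in control males and 71 to 82.1 CPM in control females. Every control female was above both p53-/- groups, although the labels give Bim+/- for all embryos, and the cause was not tested. The number that rose was 3 with affected female 3, affected female 4, control male 1 or control male 3 omitted, and 9 with control male 4 omitted; the number that fell was 1 with affected female 3 or 4 or control male 1, 2 or 3 omitted, and 4 with control male 4 omitted.

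Of 38 genes of glycolysis and the hypoxia response, 12 rose and 2 fell, with a median of 0.44 (0.24 with affected female 1 omitted). The shares were 31.6% and 5.26%, against 8.79% and 10.8% of all autosomal genes. Slc2a3, a glucose transporter, was at 1110, 959, 1020 and 828 CPM against 457, 359, 495 and 598 CPM (log2 fold change 1.03 ± 0.23 SE, edgeR adjusted p = 0.0118), and control female 1 was at 736 CPM against 378 and 277 CPM in the other control females. Pkm, the pyruvate kinase gene, was at 1630, 1520, 1810 and 1620 CPM against 874, 750, 1070 and 1410 CPM (log2 fold change 0.68 ± 0.17 SE, edgeR adjusted p = 0.0167). The 2 that fell were Vegfa, the angiogenic growth factor induced by hypoxia (-0.71), and the lactate dehydrogenase subunit Ldhb (-0.97 ± 0.22 SE, edgeR adjusted p = 0.0119). Of 71 nuclear genes of the respiratory chain 25 fell and none rose (median -0.29), and of 73 genes of cytosolic ribosomal proteins 17 fell and none rose (median -0.29). At an unadjusted p under 0.05 (edgeR), 2 respiratory genes were higher and 35 lower, against 0 and 33 ribosomal genes, and DESeq2 called 24 and 25 lower and none higher. Cox4i1, a cytochrome oxidase subunit, was at 151, 153, 116 and 102 CPM against 222, 199, 221 and 164 CPM (log2 fold change -0.63 ± 0.13 SE, edgeR adjusted p = 0.0106), and Ndufa4 at 157, 160, 112 and 98.9 CPM against 238, 212, 227 and 167 CPM (log2 fold change -0.68 ± 0.15 SE, edgeR adjusted p = 0.011). Affected females 3 and 4 were the lowest for both genes, and control male 4 was the lowest control male. Rps15a, a protein of the small ribosomal subunit, fell by 0.56 with overlapping ranges.

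Most of these respiratory and ribosomal genes are short, with median lengths of 679 and 703 bases, and calls over all autosomal genes varied with length. Rps15a itself was counted over 5136 bases, and with each library's trend with length removed it stood at -0.61 (edgeR adjusted p = 0.0128). Among the 1351 shortest genes (30 to 1121 bases) 0.962% rose and 20.2% fell, and among the 1349 longest (6339 to 104320 bases) 20.3% rose and 6.52% fell. The median of these shortest genes, relative to the mean of 11 libraries, was -0.05, 0.01, -0.20 and -0.33 in affected females and 0.24, 0.01, 0.15 and -0.04 in control males, so affected females 3 and 4 and control males 1 and 3 stood farthest apart. With each library's trend with length removed, 13 respiratory genes fell and 2 rose (median -0.09), and 8 ribosomal protein genes fell and 3 rose (median -0.11). Without affected female 4 the ribosomal median was -0.18 as counted. Removing the length trend left 11 falls among the early neuron genes, 9 among the proneural genes, 15 rises among the surface ectoderm genes and 13 among the glycolysis and hypoxia genes, and lowered the rises among the repair genes from 12 to 8, the closure genes from 18 to 13 and the Notch genes from 4 to 2. In the leave-one-out fits the number of respiratory genes that fell was 0 with affected female 3 omitted, 3 with control male 1 omitted, 8 with affected female 4 omitted, 13 with control male 3 omitted and 16 with control male 2 omitted, and the number of ribosomal genes was 0, 0, 1, 3 and 2 in the same fits, 26 with affected female 2 omitted and 32 with control male 4 omitted. Of the glycolysis and hypoxia genes 0 rose without affected female 3, 1 with control male 1 omitted, 4 with control male 2 omitted, 6 with affected female 1 or control male 3 omitted and 7 with affected female 4 omitted. Counts of the mitochondrial genome made up 1.61%, 1.69%, 1.31% and 1.43% of the affected libraries and 2.82%, 3.82%, 3.82% and 2.06% of the control male libraries (two-sided exact permutation p = 0.0286, the smallest that 4 against 4 allows). The part of RNA quality in these values was not tested.

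**Figure D4:**
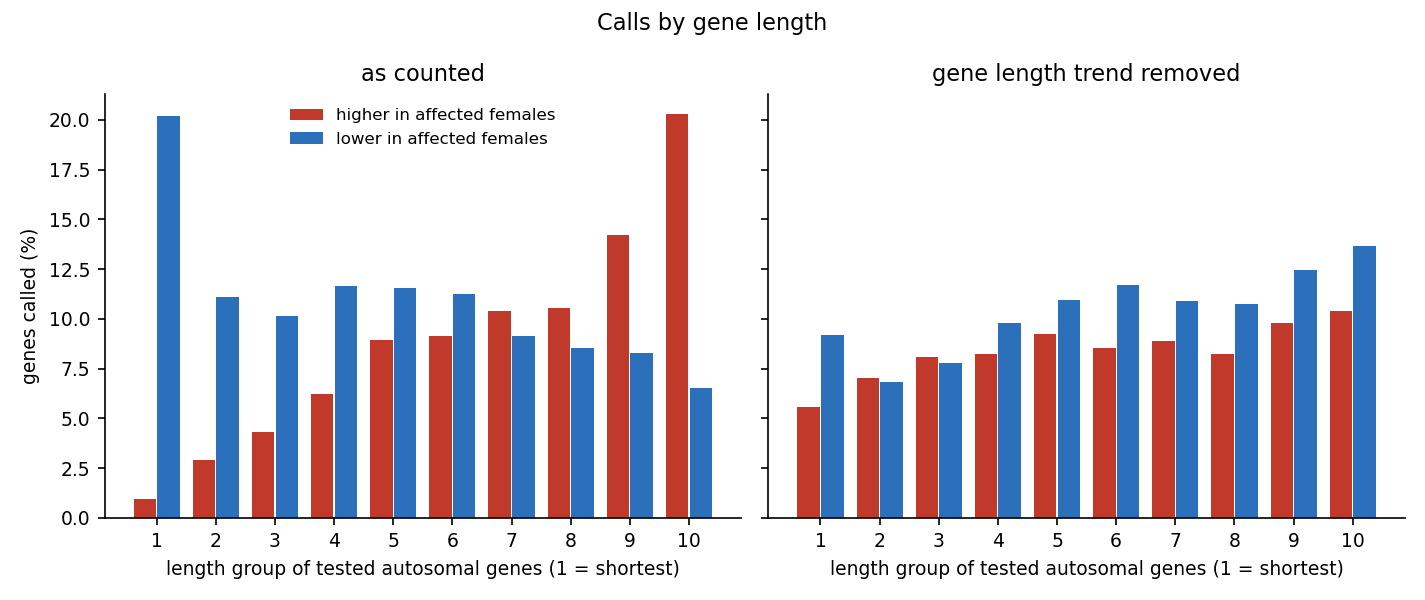
Share of autosomal genes called higher (red) or lower (blue) in affected females, in percent, in 10 groups of nearly equal size ordered by gene length, shortest first, as counted (left) and with each library's trend with length removed (right). As counted, 20.2% of the shortest group fell and 20.3% of the longest rose.

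The list of imprinted genes, which are expressed from 1 parental copy, also held Zfp57, a factor that acts on imprints. The list split: of 38 tested, 7 fell, Zfp57 among them, and 6 rose, with a median of -0.13. The shares were 18.4% and 15.8%, where 10.8% of all autosomal genes fell and 8.79% rose. Zfp57 (chromosome 17, 37001163 to 37010729), the zinc finger factor that maintains imprints, was at 46.3, 37.7, 33.5 and 35.1 CPM against 88.7, 135, 84 and 57 CPM (log2 fold change -1.26 ± 0.19 SE, edgeR adjusted p = 0.0046). Plagl1, a growth-restraining imprinted zinc finger factor, was at 95, 82.6, 82.9 and 128 CPM against 148, 198, 146 and 171 CPM (log2 fold change -0.77 ± 0.15 SE, edgeR adjusted p = 0.00907). Both calls held in all 8 leave-one-out fits. At the Dlk1-Meg3 domain on chromosome 12, genes of both parental origins fell: the paternally expressed Dlk1 by 0.83 and the maternally expressed Meg3, Rian and Mirg by 0.92, 0.47 and 0.76 on the log2 scale. Control male 4, at 154 CPM for Meg3, lay within the affected females' 142 to 181 CPM. The growth regulators H19 and Igf2r rose by 0.37 and 0.48. None of the calls at the Dlk1-Meg3 domain, nor those of H19 and Igf2r, held without affected female 3; the number that fell was then 2 and the number that rose 0, against 11 and 10 with control male 4 omitted. Without control male 1 the numbers were 4 and 1, and the number that rose was 3 with affected female 1 or 4 or control male 2 or 3 omitted. Among 49 silencing factors, 7 rose and 4 fell (Phf1, Ring1, Tet2 and Pcgf1), 14.3% and 8.16% against 8.79% and 10.8% of all autosomal genes. Dnmt1, the maintenance DNA methyltransferase, was at 417, 421, 516 and 505 CPM against 264, 288, 317 and 373 CPM (log2 fold change 0.58 ± 0.12 SE, edgeR adjusted p = 0.0102). Smchd1, a chromatin protein of X inactivation and imprinting, rose by 0.49 (edgeR adjusted p = 0.019; not called without affected female 3 or 4 or control male 1 or 2). The number of silencing factors that rose was 1 with affected female 3 omitted, 2 with control male 1 omitted, 4 with control male 2 or 3 omitted and 14 with control male 4 omitted, and the number that fell was 0 with affected female 3 or control male 1 or 2 omitted, 1 with affected female 4 omitted, 2 with control male 3 omitted and 9 with control male 4 omitted.

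Single genes of other pathways changed as well. Foxo1, a transcription factor restrained by insulin signalling, rose by 0.68 (± 0.13 SE, edgeR adjusted p = 0.00906), from 19.6 to 31.4 CPM in control males to 36.1 to 42.9 CPM. The guidance receptors Epha5 and Epha8 fell by 1.73 and 1.07 on the log2 scale. Xbp1, a transcription factor of the unfolded protein response, was at 60.6, 84.8, 65.5 and 60.7 CPM against 97.8, 116, 107 and 109 CPM (log2 fold change -0.66 ± 0.11 SE, edgeR adjusted p = 0.00557). The unaffected control females, at 71.4, 84.5 and 83.1 CPM, lay above affected females 1, 3 and 4 and below affected female 2. Every control male was above them, but control males and control females were not called different (log2 fold change 0.43, edgeR adjusted p = 0.463). Among the largest rises was the bHLH factor Tcfl5, at 13.7, 21.6, 22.7 and 10.3 CPM against 6.11, 4.14, 6.61 and 6.82 CPM (log2 fold change 1.52 ± 0.28 SE, edgeR adjusted p = 0.00872). Ret, the receptor of GDNF family ligands, rose by 1.13 and Vgll3, a cofactor of TEAD proteins, by 1.15. Meox1, a homeobox gene of somites, rose by 1.39 and varied among affected females from 9.11 to 22 CPM; its call was lost without affected female 1 or 3 or control male 2. Foxo1, Xbp1, Tcfl5, Ret and Vgll3 were called in all 8 leave-one-out fits, and Epha5 and Epha8 in all but that without affected female 3.

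Markers of other cells in the dissection were tallied beside these results. For reference, 8.79% of all autosomal genes rose and 10.8% fell. The 20 erythroid genes summed to 1370 to 2670 CPM in affected females and 2440 to 4150 CPM in control males, with 1 rise (Car2) and no fall, and the embryonic globin gene Hbb-bh1 was at 854, 778, 562 and 314 CPM against 1490, 909, 1040 and 803 CPM (edgeR adjusted p = 0.226). Of 23 endothelial genes none was called by edgeR or by DESeq2, and 1 was higher and 3 were lower at an unadjusted p under 0.05 (edgeR); Tie1, an endothelial receptor, stood at -0.34 (± 0.12 SE, edgeR adjusted p = 0.0631). The 4 tested macrophage genes summed to 3.68 to 5.08 CPM against 5.63 to 16.1 CPM, and to 4.24, 11.8 and 13.6 CPM in the control females. Fcer1g, a receptor subunit of myeloid cells, fell by 2.03, and its call was lost without affected female 3 (edgeR adjusted p = 0.0501). The lysosomal marker Cd68 fell by 1.30 with overlapping ranges, and was called in 3 of the 8 leave-one-out fits. Csf1r, the defining receptor of macrophages, was at 0, 0.308, 0.186 and 0.387 CPM against 1.03, 1.86, 0.395 and 0.364 CPM (edgeR adjusted p = 0.076). The fourth, the mannose receptor gene Mrc1, was at 1.2, 0.719, 1.03 and 0.969 CPM against 0.376, 1.45, 0.69 and 1.18 CPM (log2 fold change 0.09 ± 0.44 SE, edgeR adjusted p = 0.9). C1qa had no count in any of the 8 libraries. Of 21 head mesenchyme genes 1 rose (Meox1) and 1 fell (Postn), with sums of 697 to 858 and 757 to 1020 CPM. The cardiac markers Myl3 and Nkx2-5 had no count, and the 4 cardiac genes tested summed to 9.35 to 12.3 CPM against 4.86 to 8.78 CPM. The part of these cells in the gene groups above was not tested.

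**Figure D5:**
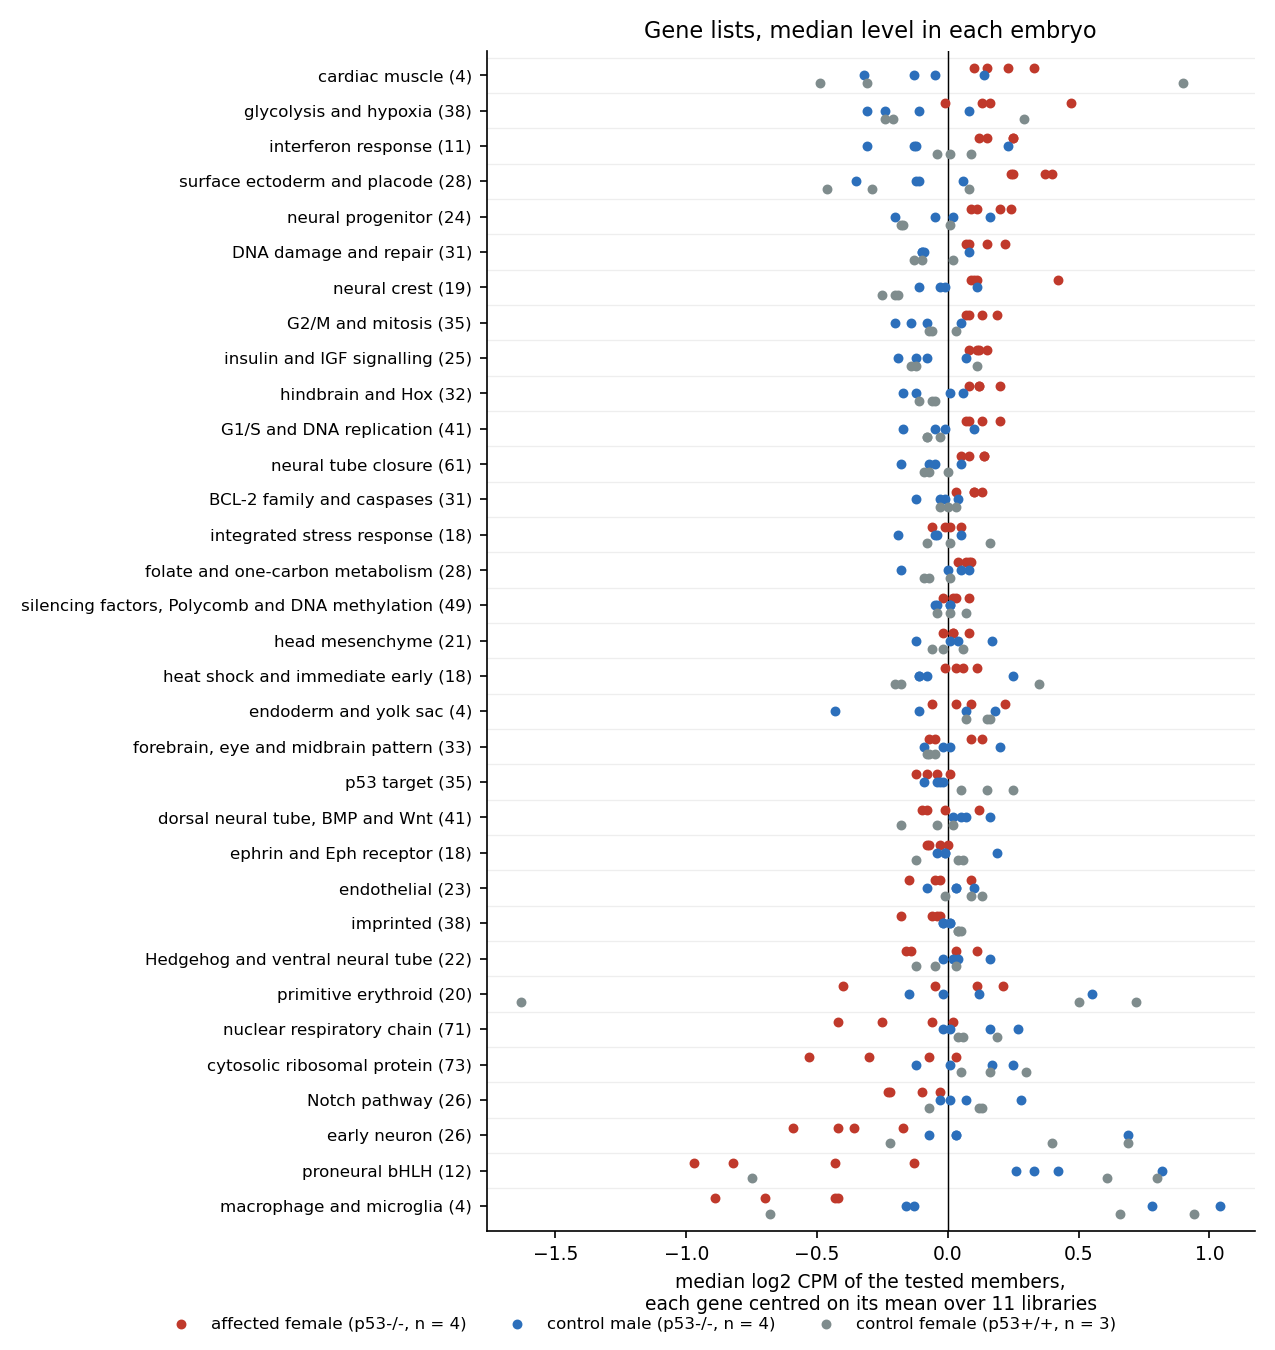
Median level of the tested autosomal members of each of 33 gene lists (number of genes in brackets) in each embryo, as log2 CPM with each gene centred on its mean over 11 libraries; points are embryos (red, affected females; blue, control males; grey, control females). The surface ectoderm medians of the affected females (0.24 to 0.40) lie above and their proneural medians (-0.97 to -0.13) below those of all 4 control males.

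The autosomes differed little among themselves. The median log2 fold change per chromosome ran from -0.09 (chromosome 17, where 15.7% of 688 genes fell and 7.85% rose) to 0.05 (chromosome 18, where 6.3% of 365 fell and 12.3% rose).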

How the data were processed

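Polyadenylated RNA of brains from 4 affected females, 4 control males and 3 control females was sequenced. The deposited values are read counts per Entrez gene, which the authors made with featureCounts on mm10, per the submitters' processing notes; how reads were aligned, the annotation release and the strand setting are not given in the sources used. The labels give no batch. Symbols, positions, upstream windows and miRNAs came from RefSeq (GRCm38.p6), and 1904 of 27179 IDs had no symbol.

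Counts were fitted in edgeR 4.0.16 (R 4.3.3; filterByExpr, TMM, quasi-likelihood, 3 groups, 11 libraries of 8211942 to 11218682 counts), with Benjamini-Hochberg adjustment over 14542 genes and a threshold of 0.05; the code was tested on simulated data. The biological coefficient of variation was 11.9%. P-values measure spread between embryos. No pair of libraries within the 2 compared groups was a duplicate (chi-square per degree of freedom 3.72 to 31.6).

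The members and gene lists were chosen with earlier results of these data known. The genes named by rule were the 12 largest rises and the 12 largest falls among called genes without overlap between the groups (average log2 CPM of at least 2), the 4 members of each of 33 lists with the smallest adjusted p, called or not, and check genes; 51 of 140 genes in the text fall outside this rule and were chosen after their values were seen, among them Neurog1, Neurog2, Atoh1, Tubb3, Gm3764, Sox2, Lin28a, Shh, Fgf8, Cdh1 and Meg3. Results were recomputed with DESeq2 1.42.0, with limma 3.58.1 (voom with sample weights), under RLE scaling or TMM factors taken from the autosomes, under 2 other filters on low counts, and with the 8 compared libraries alone, a replicate block, each embryo left out, affected female 3 and control male 4 left out together, and removal of each library's trend with gene length. A few genes that the rule named are not reported here.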

Additional observations from a re-analysis of the deposited data

Results flagged for a closer look

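In 348 groups of 4 embryos, each the level of 1 gene, the median of 1 list or the mitochondrial share, 21 held 1 embryo that lay far from the other 3 (Dixon's test at 95%); chance gives about 1 in 20. The flagged share was close to that of chance, and Nhlh1, Neurod1, Myt1 and Elavl4 were not among the flags. Control male 2 was the embryo that stood apart for some other genes of neurogenesis. It was the highest control male for Nhlh2 (14.8 CPM), St18 (10.1 CPM), Stmn2 (46 CPM), Mir9-3hg (6.51 CPM), Dll1 (86.8 CPM) and Slc1a3 (30.1 CPM), and for the medians of the early neuron list (0.69) and of the ephrin and Eph receptor list (0.19), on the log2 scale relative to the mean of 11 libraries. Control male 4 was high for Maml1 (68.4 CPM) and for the medians of the lists of heat shock and immediate early genes (0.25) and of DNA damage and repair (0.08).

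Among affected females, replicate 1 was high for Sox10 (33.5 CPM), Pcgf1 (5.08 CPM), Fcer1g (0.498 CPM) and the median of the neural crest list (0.42). Affected female 2 was low for Esrp1 (32.1 CPM) and high for Ring1 (15.6 CPM). Affected female 3 was high for Sp8 (54.4 CPM) and Otx2 (138 CPM), and affected female 4 for Cnpy1 (10.9 CPM) and Nkx2-1 (7.36 CPM).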

How the results depend on the processing

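Over the alternatives that keep all 8 embryos, the number of autosomal genes called (2649) was 2615 with RLE scaling, 2613 with TMM from autosomal genes, 2622 without a filter, 2599 with a CPM minimum, 3020 with DESeq2, 2580 with the 8 libraries alone, 2536 with the length trend removed and 5863 with limma voom, whose larger number has a cause that was not tested. Over the fits with 1 embryo left out it ran from 278 to 4716, the rises of at least 2-fold from 20 to 81 (59 in the full fit) and the falls from 48 to 429 (216 in the full fit). Leaving out affected female 3 and control male 4 together gave 3268 calls and 328 such falls. The replicate block gave 3089 calls; same-numbered embryos had correlations of 0.15, -0.13, 0.01 and 0.12, so the numbers were read as names and not as pairs. Of the lists' medians, that of p53 targets moved from -0.02 to -0.11 with voom (-0.09 to -0.02 with 1 embryo left out) and the endothelial one from -0.09 to -0.20, the cause of both not tested. Removing the length trend moved the respiratory chain from -0.29 to -0.09 and the silencing factors from 0.07 to 0.00. The macrophage median went from -1.63 to -0.61 with the 8 libraries alone, where 2 of its 4 genes were tested. With 1 embryo left out, the neural crest median ran from 0.02 to 0.26 and that of the BCL-2 family and caspases from 0.02 to 0.12.

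Some of the 140 genes in the text, such as Sox2 and Hes1, were not called in the full fit and could not lose a call. Of the called genes, 88 lost their call without affected female 3, 56 and 43 without control males 1 and 2, and 35 without affected female 4. Over the 18 alternatives, 2186 gene values kept their direction and side of the threshold, 313 lost the call, 18 gained it and 0 reversed. With all embryos kept, the calls lost were those of Meox1, Neurod4 and Pcgf1 (DESeq2), Cks2, Maml2, Neurog1, Oc90, Pcgf1 and Rbpj (length trend removed), Oc90 (voom), Pcgf1 (no filter), Car2 and Pcgf1 (8 libraries), and Car2, Maml2 and Oc90 (replicate block). Genes at 1 to 3 CPM rest on few counts per library, and with 4 embryos in each group small changes can be missed.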
